A study of Mus musculus with 12 samples.

Results

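Mitochondrial ribosomal protein genes were followed in mouse choroid plexus, in the RNA bound to tagged ribosomes and in the RNA left behind, in the morning and in the evening. The members were the rows whose symbol began with Mrpl or Mrps and a number, without named pseudogenes, together with Dap3: 78 of 24327 genes in the deposited table. By symbol, 48 belonged to the large subunit and 30, Dap3 included, to the small subunit. Choroid plexus of the lateral ventricle came from mice aged 60 days with the FoxJ1:cre and bacTRAP (EGFP:L10a) transgenes, heterozygous for each. In translating ribosome affinity purification (TRAP), an EGFP-tagged copy of the cytosolic ribosomal protein RPL10A is pulled down together with the mRNA on those ribosomes. The supernatant holds the RNA that was not pulled down, here called unbound. It can include RNA on ribosomes without the tag. There were 4 groups of 3 libraries: TRAP at 9 a.m. (light phase), TRAP at 9 p.m. (dark phase), and the supernatant at each of those times. All 12 libraries carried both transgenes, so no untagged tissue entered the comparisons. Foxj1-driven Cre acts in ciliated epithelium, and the tag therefore reports on that cell class and not on the stroma. By the study's methods each library was a pool of tissue from 3 mice, while the labels give it 1 adult number.

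Mitochondrial ribosomes translate the few proteins encoded in mitochondrial DNA, which are subunits of the respiratory chain and of ATP synthase. Their ribosomal RNA comes from the mitochondrial genome, whereas all their proteins are encoded in the nucleus, translated on cytosolic ribosomes and imported. TRAP therefore measures the mRNA for building mitoribosomes that sat on cytosolic ribosomes, not the mitoribosomes themselves. The small subunit decodes the mRNA, and the large subunit forms the peptide bond and passes the chain to the inner membrane. Choroid plexus epithelium is rich in mitochondria and secretes the cerebrospinal fluid.

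Levels are given as FPKM, a read count scaled to the length of the transcript and to the library total. The tissue label matched its markers: 12 epithelial genes summed to between 24829 and 55431 FPKM over the 12 libraries, with Ttr, the thyroid hormone carrier of the choroid plexus, giving most of it. The 10 fibroblast genes summed to between 614 and 1012 FPKM in TRAP and to between 1462 and 2539 FPKM in the supernatant, with 2 of them at 0 throughout TRAP at each time. Igf2 gave most of this sum in every library, between 606 and 1006 FPKM in TRAP, where Col1a1 and Col3a1 were at most at 0.476 and 0.171 FPKM. The 8 macrophage genes reached 6.82 FPKM in TRAP and 62.2 FPKM in the supernatant, and 9 liver genes reached 1588 FPKM in 1 library, TRAP 9 a.m. replicate 3. Small RNA rows took between 33.6% and 75.4% of the summed FPKM of a library. The read depth is unknown, so no counting interval is given. In such bulk tissue, fewer cells of a type and less RNA per cell cannot be told apart.

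The typical mitoribosome gene stood above the middle of the coding genes, many of which were near 0. The median, over members, of the mean level across the 12 libraries was 15.4 FPKM, and the median member stood at percentile 80.6 of 19838 coding genes. Only 10425 of those coding genes had a mean over 1 FPKM, with a median of 10.1 FPKM. The 77 members over that limit had a median of 15.6 FPKM. Both subunits sat at the same height, with medians of 15.4 FPKM (large) and 15.3 FPKM (small) and percentiles of 80.6 and 80.4. The members spanned from 0.0673 to 129 FPKM. Because FPKM is scaled per length, these levels can be compared between genes, although an estimate listed at 0 may be a failed one.

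Mrps6, a protein of the small subunit platform, had the highest mean of the small subunit, with a lowest library of 42.8, a median of 124 and a highest of 357 FPKM. It was the member of highest level in 6 of the 12 libraries. Its locus overlaps Slc5a3 on the same strand, and reads of these genes may have been split between them. Mrps21 followed at a median of 92.3 FPKM (2.51 to 125), then Mrps7, which sits in the head of the small subunit near the mRNA exit, at 22.3 FPKM (0.141 to 87.5), and Mrps35 at 17.2 FPKM (0.378 to 80.0). In the large subunit the highest means belonged to Mrpl42, with a median of 72.5 FPKM (1.37 to 181), Mrpl13 at 67.2 FPKM (0 to 153), Mrpl20 at 31.2 FPKM (0 to 124) and Mrpl33 at 15.9 FPKM (0 to 154). Apart from Mrps6, each of these ran from near 0 to its top within the 12 libraries, so that none of the neighbours in this order was separated by its spread.

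At the other end, Mrpl23, a protein at the exit of the peptide tunnel, was listed at 0 in 11 libraries and at 0.807 FPKM in TRAP 9 p.m. replicate 2. The other large subunit genes of lowest mean were Mrpl57 (3.41 FPKM), Mrpl11 (3.56 FPKM), a stalk protein, and Mrpl9 (4.37 FPKM). In the small subunit they were Mrps18b (1.38 FPKM), Mrps36 (1.92 FPKM), Mrps10 (2.12 FPKM) and Mrps18c (2.12 FPKM). Mrps36, counted here by its symbol, is known as a subunit of the alpha-ketoglutarate dehydrogenase complex. Mrps18a, Mrps18b and Mrps18c are 3 related proteins that take different places in the ribosome, and Mrps18a was listed at 21.2 FPKM on average, above both relatives.

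**Figure D1:**
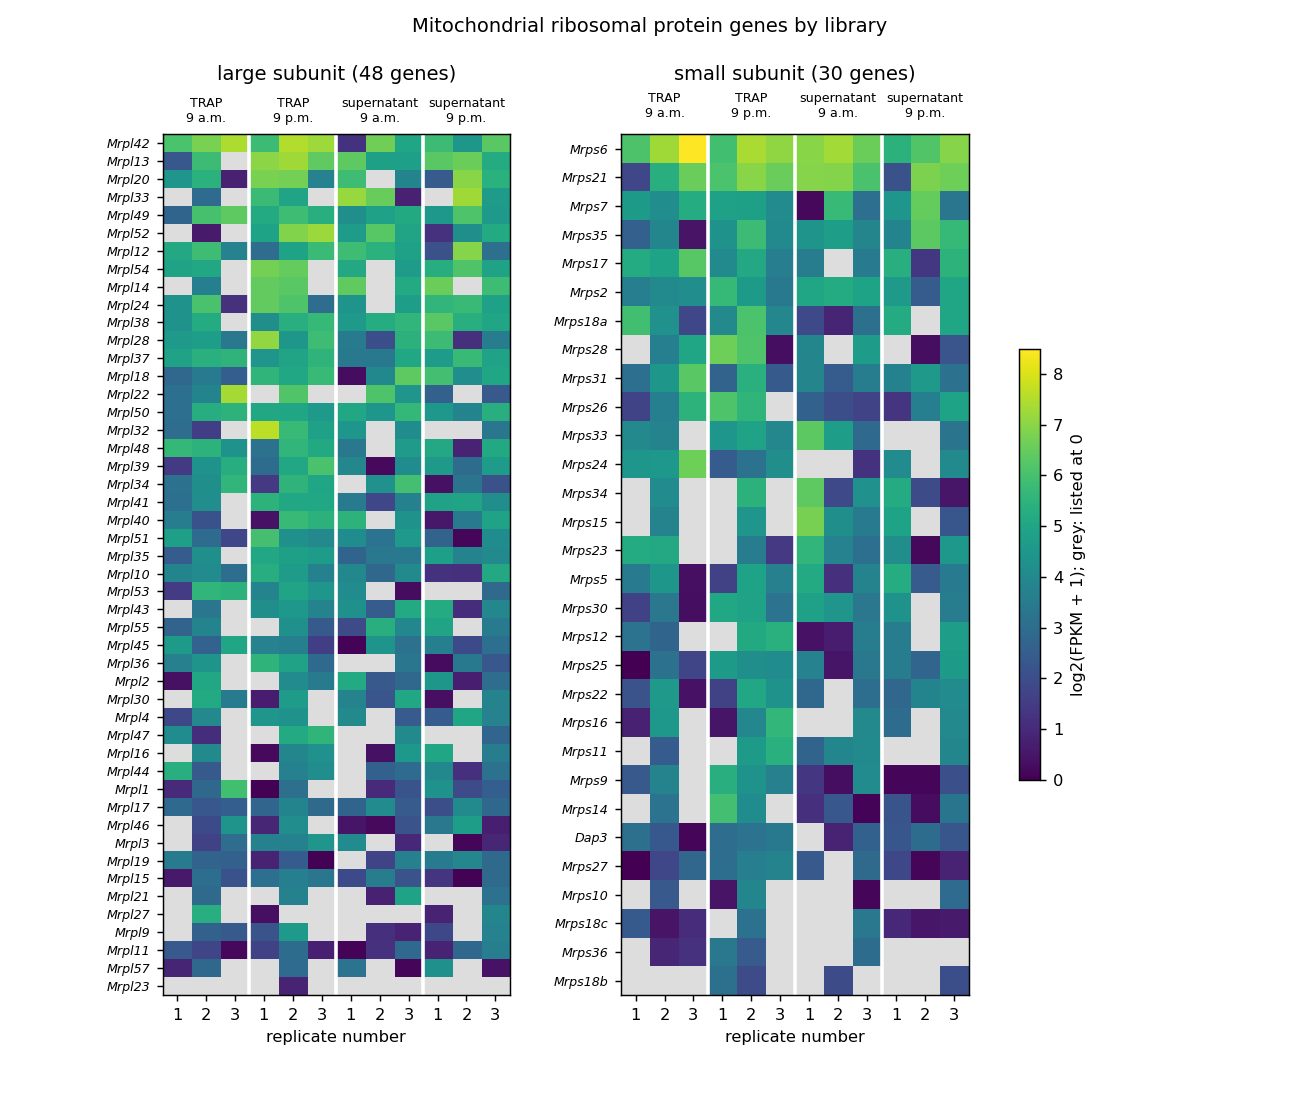
Level of each of the 78 mitoribosome genes (rows, ordered by mean within each subunit) in each of the 12 libraries (columns, replicates 1 to 3 of each group), coloured by log2(FPKM + 1), with grey for a value listed at 0. Grey cells gather in single libraries, such as TRAP 9 a.m. replicate 3 with 33 of them, rather than in whole groups.

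The libraries differed strongly in how many mitoribosome genes they detected at all. Only 22 of the 78 members were above 0 in every library, 14 of the large and 8 of the small subunit, and 12 were over 1 FPKM in every library. Those 12 were Mrpl10, Mrpl12, Mrpl17, Mrpl28, Mrpl37, Mrpl42, Mrpl49, Mrpl50, Mrps2, Mrps6, Mrps21 and Mrps31. The number of members listed at 0 was 20, 2 and 33 in TRAP at 9 a.m., 14, 1 and 21 in TRAP at 9 p.m., 19, 24 and 3 in the 9 a.m. supernatant, and 13, 24 and 2 in the 9 p.m. supernatant, for replicates 1, 2 and 3. In each group 1 library thus listed at most 3 members at 0 and the other libraries at least 13, and the groups overlapped. Those 4 libraries also listed the fewest coding genes at 0, between 3.66% and 6.93% of those over 1 FPKM on average, and the other libraries listed between 13.2% and 32.6%.

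A high mean did not protect a member from a 0. Of the 28 members with a mean over 20 FPKM, 15 were listed at 0 in some library: Mrpl13, Mrpl14, Mrpl20, Mrpl22, Mrpl24, Mrpl32, Mrpl33, Mrpl34, Mrpl38, Mrpl48, Mrpl52, Mrpl54, Mrps17, Mrps18a and Mrps28. Mrpl14, a protein of the face where the subunits join, was listed at 0, 11.8 and 0 FPKM in TRAP at 9 a.m., at 85.4, 78.8 and 0 FPKM in TRAP at 9 p.m., at 85.0, 0 and 35.3 FPKM in the 9 a.m. supernatant and at 94.5, 0 and 57.2 FPKM in the 9 p.m. supernatant. Such a gene switched between high and nothing within every group, and the groups overlapped. The coefficient of variation over the 12 libraries had a median of 107% over members and ran from 42.4% for Mrpl50 to 346% for Mrpl23. Mrpl50, Mrpl37 (43.7%) and Mrps2 (54.6%) varied least.

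Mitoribosome genes are short, and short genes were listed at 0 more often throughout the table. The median longest transcript of the members was 1866.5 bases in the annotation, against 3008 bases for all coding genes, and the median coding length 582 against 1227 bases. Among members with a mean over 1 FPKM, 26.5% of values were at 0 where the longest transcript had up to 1000 bases, 19.1% from 1000 to 2000, 14.9% from 2000 to 4000 and 9.03% above 4000. The same shares over all coding genes with such a mean were 32.4%, 25.9%, 16.5% and 7.98%. Over all lengths, 17.9% of the values of these 77 members were at 0, against 15.1% of those of coding genes.

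**Figure D2:**
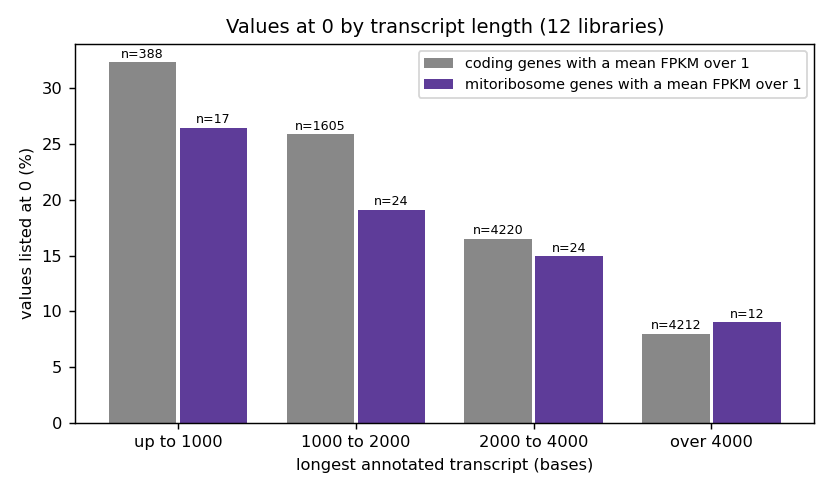
Share of values listed at 0 over the 12 libraries (vertical axis, %) by the length of the longest annotated transcript (horizontal axis, bases), for coding genes and for mitoribosome genes with a mean over 1 FPKM; n is the number of genes. The share falls with length in both sets, from 32.4% to 7.98% and from 26.5% to 9.03%.

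Summed over all 78 genes, mitoribosome mRNA was highest in the 3 TRAP libraries of 9 p.m. The sum was 2124, 2850 and 1734 FPKM there, against 853, 1597 and 1680 FPKM in TRAP at 9 a.m., 1620, 1177 and 1377 FPKM in the 9 a.m. supernatant, and 1324, 1457 and 1478 FPKM in the 9 p.m. supernatant. The lowest TRAP library of 9 p.m. thus lay just above the highest of the others. With Mrps6 left out, a choice made after its values were seen, the TRAP sums were 2065, 2681 and 1601 FPKM at 9 p.m. and 786, 1444 and 1322 FPKM at 9 a.m., and the highest supernatant stood at 1495 FPKM. As a share of the FPKM of all coding genes, the members took 0.590%, 0.753% and 0.570% in TRAP at 9 p.m. and 0.337%, 0.486% and 0.560% in TRAP at 9 a.m. The group means were 2236 ± 567 FPKM (SD, n = 3) for TRAP at 9 p.m., 1377 ± 455 for TRAP at 9 a.m., 1391 ± 222 for the 9 a.m. and 1420 ± 83.7 for the 9 p.m. supernatant. The epithelial markers were also higher in evening TRAP, at 55431, 53234 and 37058 FPKM against 24829, 36057 and 33458 FPKM in morning TRAP. Unlike the member sums, they overlapped with the morning supernatant, which ran from 25243 to 40895 FPKM. Without Ttr, the markers in TRAP were at 3917, 4282 and 4125 FPKM in the evening and at 3907, 4755 and 3717 FPKM in the morning, which overlapped. The part of either in the mitoribosome sum was not tested.

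By subunit, the sums of the large subunit did not overlap between TRAP at 9 p.m. and the other groups, and those of the small subunit did. Large subunit genes summed to 1477, 1816 and 1183 FPKM in TRAP at 9 p.m., and the highest of the other 9 libraries stood at 1040 FPKM. Small subunit genes summed to 647, 1034 and 551 FPKM in TRAP at 9 p.m. and to 330, 557 and 844 FPKM in TRAP at 9 a.m., which overlapped. The ratio of the sums, large over small, ran from 0.990 in TRAP 9 a.m. replicate 3, where Mrps6 alone gave 21.3% of the members' sum, to 2.42 in supernatant 9 p.m. replicate 2. The ratio overlapped between all groups. The difference between the subunits was not tested.

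The median member is little affected by single high genes. It stood at 10.8, 27.4 and 12.2 FPKM in TRAP at 9 p.m., at 4.78, 13.3 and 0.543 FPKM in TRAP at 9 a.m., at 9.71, 2.55 and 12.1 FPKM in the 9 a.m. supernatant and at 10.1, 1.43 and 11.9 FPKM in the 9 p.m. supernatant. Here the groups overlapped. In the 4 libraries with the fewest members at 0, 1 from each group, the median was 27.4 FPKM in TRAP at 9 p.m. and 13.3, 12.1 and 11.9 FPKM in TRAP at 9 a.m. and the morning and evening supernatants. With 1 library a group, these values carry no test.

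**Figure D3:**
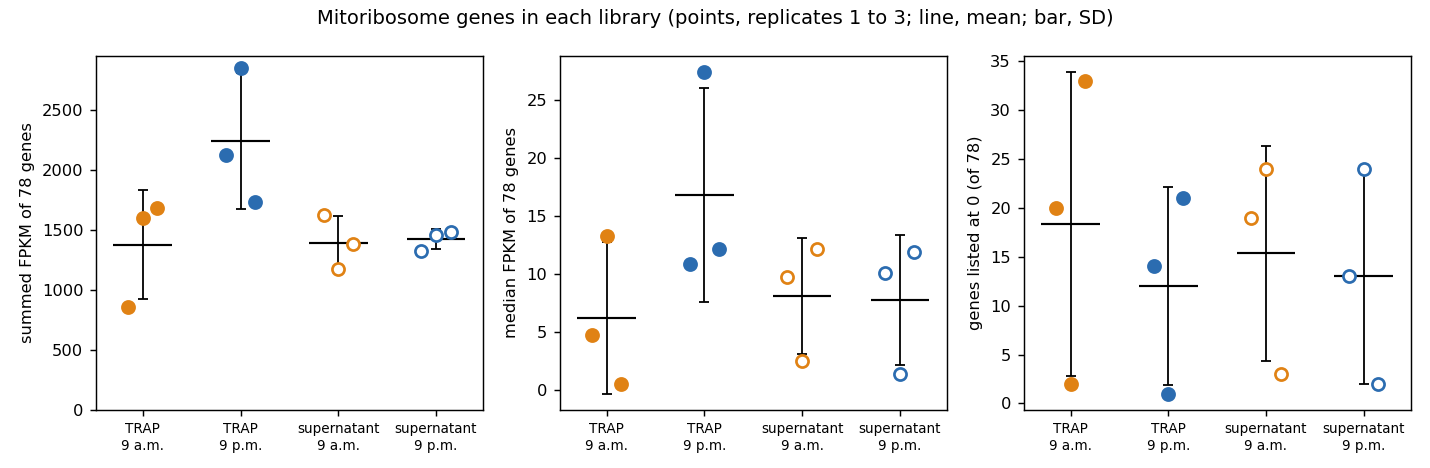
Summed FPKM, median FPKM and number of genes listed at 0 over the 78 mitoribosome genes in each library, by group (filled, TRAP; open, supernatant; orange, 9 a.m.; blue, 9 p.m.), with the mean of the 3 libraries as a line and the SD as a bar. The 3 TRAP libraries of 9 p.m. have the highest sums, from 1734 to 2850 FPKM, while the medians and the numbers at 0 overlap between groups.

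The first comparison asked whether mitoribosome mRNA on tagged ribosomes differed between the dark and the light phase. In TRAP, more members had the higher mean at 9 p.m. than had it in the morning, but no single gene passed the test. Of the 77 members with a mean over 1 FPKM in these 6 libraries, 58 were higher and 19 lower at 9 p.m. on the log2(FPKM + 1) scale, that is 75.3% higher, against 56.9% of all 10563 genes tested. The median log2 fold change was 0.98 over members, 0.90 for the large and 1.26 for the small subunit, against 0.16 over all genes, so that members stood 0.82 above the general shift. None of them was called at an adjusted p below 0.05, and the share called over all genes was 0%. At an unadjusted p below 0.05, 13 members were higher and 1 lower, against 2.95% and 1% of all genes. In 12 members all 3 values of 9 p.m. lay above all 3 of 9 a.m., and in 2 below, against 5.7% and 2.93% of all genes. Leaving out TRAP 9 p.m. replicate 2 lowered the number of higher members to 44 of 76, with a median of 0.60, and leaving out TRAP 9 a.m. replicate 3 gave a median of 0.57. The p-values measure the spread between these pooled libraries.

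Mrpl52 showed the largest difference between the times of any member. It encodes a large subunit protein with no bacterial counterpart, at chr14:54426909-54429756 on the plus strand (GRCm38), with no other gene overlapping it. In TRAP it was listed at 0, 0.541 and 0 FPKM in the morning and at 29.2, 115 and 146 FPKM in the evening. In the supernatant it was at 24.3, 76.9 and 29.8 FPKM in the morning and at 1.29, 17.6 and 35.1 FPKM in the evening. The 3 TRAP libraries of 9 a.m. were thus the lowest of all 12, and lay below the supernatant of the same time. The log2 fold change in TRAP, 9 p.m. over 9 a.m., was 6.12 (SE 0.90, unadjusted p = 2.77e-05), with an adjusted p of 0.146 in limma and a range of 0.0566 to 0.953 over the alternatives. The difference between fractions in the time difference was 7.89 (SE 1.34, adjusted p = 0.196). With libraries of the same time and number as a block, a pairing that the labels do not state, that adjusted p was 0.0451. This was the single member called under that block. Over all alternatives it ran from 0.0451 to 0.974, the highest without supernatant 9 a.m. replicate 2.

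Other large subunit genes followed in the order of their p-values. Mrpl32, at chr13:14608184-14613165 on the minus strand, encodes a protein that the m-AAA protease cuts before it joins the ribosome. It was at 7.23, 1.997 and 0 FPKM in morning TRAP and at 196, 53.2 and 27.7 FPKM in the evening, a log2 fold change of 4.53 (SE 0.97, adjusted p = 0.941). Its groups did not overlap, and replicate 1 of 9 p.m. was by far the highest. Mrpl18, which binds the structural RNA of the central protuberance and lies at chr17:12911349-12916345, was at 6.08, 10.4 and 4.75 FPKM in the morning and at 46.2, 33.3 and 52.6 FPKM in the evening, a log2 fold change of 2.51 (SE 0.61, adjusted p = 0.941). It was above 0 in each of these 6 libraries, and the lowest evening value lay well above the highest morning one. In the supernatant Mrpl18 ran from 0.210 to 83.0 FPKM at 9 a.m. and from 17.0 to 61.1 FPKM at 9 p.m., which overlapped. Mrpl13, a core protein of the large subunit at chr15:55534094-55557748, was at 3.94, 55.7 and 0 FPKM in the morning and at 127, 153 and 84.7 FPKM in the evening, a log2 fold change of 4.19 (SE 1.13, adjusted p = 0.941). The groups did not overlap, with TRAP 9 a.m. replicate 2 the nearest to the evening values. Without that library Mrpl13 was called, at a log2 fold change of 5.74 and an adjusted p of 0.0431. Mrpl13 overlaps Mtbp on the opposite strand, and Mrpl18 overlaps Tcp1 in the same way. The use of strand in the counting was not given, so reads of such pairs cannot be told apart.

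Mrpl41, a large subunit protein without a bacterial relative, was at 7.47, 17.1 and 0 FPKM in morning TRAP and at 43.7, 32.2 and 32.8 FPKM in the evening (log2 fold change 2.79, SE 0.996, adjusted p = 0.941). It was also higher in the evening supernatant, at 28.8, 30.1 and 17.4 FPKM against 10.3, 2.47 and 12.2 FPKM (1.68, SE 0.73, adjusted p = 0.970), and in neither fraction did the times overlap. Mrpl35 had evening values of 32.8, 27.2 and 24.5 FPKM in TRAP and of 26.8, 13 and 15.4 FPKM in the supernatant. Its morning values, 4.53, 17.8 and 0 FPKM in TRAP and 5.67, 9.53 and 9.77 FPKM in the supernatant, lay below them in both fractions. The remaining members without overlap and higher at 9 p.m. in TRAP were Mrpl3, Mrpl15, Mrpl43, Mrps25, Mrps27 and Mrps35. Mrps25, a small subunit protein, was at 4.38e-05, 8.20 and 2.45 FPKM in the morning and at 23.9, 17.6 and 16.5 FPKM in the evening, with a log2 fold change of 2.66 (SE 1.03, adjusted p = 0.941).

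Fewer members pointed the other way. Mrps24, a small subunit protein close to the mRNA entry, was at 20.96, 22.02 and 97.5 FPKM in morning TRAP and at 4.50, 7.98 and 17.2 FPKM in the evening, a log2 fold change of -1.93 (SE 0.77, adjusted p = 0.941). The groups did not overlap, and the same held for Mrpl19, at 9.95, 5.43 and 5.10 FPKM against 0.784, 4.50 and 0.0277 FPKM (-1.80, SE 1.13, adjusted p = 0.941). Mrps24 shares its strand and span with Urgcp. Mrps17, which binds the ribosomal RNA of the small subunit, followed at -1.21 (SE 0.60). Mrpl22, a protein lining the peptide tunnel, had -2.70 (SE 1.64), and its values at 9 p.m. were 0, 71.6 and 0 FPKM against 7.54, 13.3 and 161 FPKM. Mrpl1, next to the exit site for spent tRNA, had -2.20 (SE 1.47), with 60.0 FPKM in 1 morning library and at most 7.69 FPKM in the other 5. The highest morning values of Mrps24, Mrps17, Mrpl22 and Mrpl1 all came from TRAP 9 a.m. replicate 3, the library with 33 members at 0. Mrpl19 had its lowest morning value there.

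**Figure D4:**
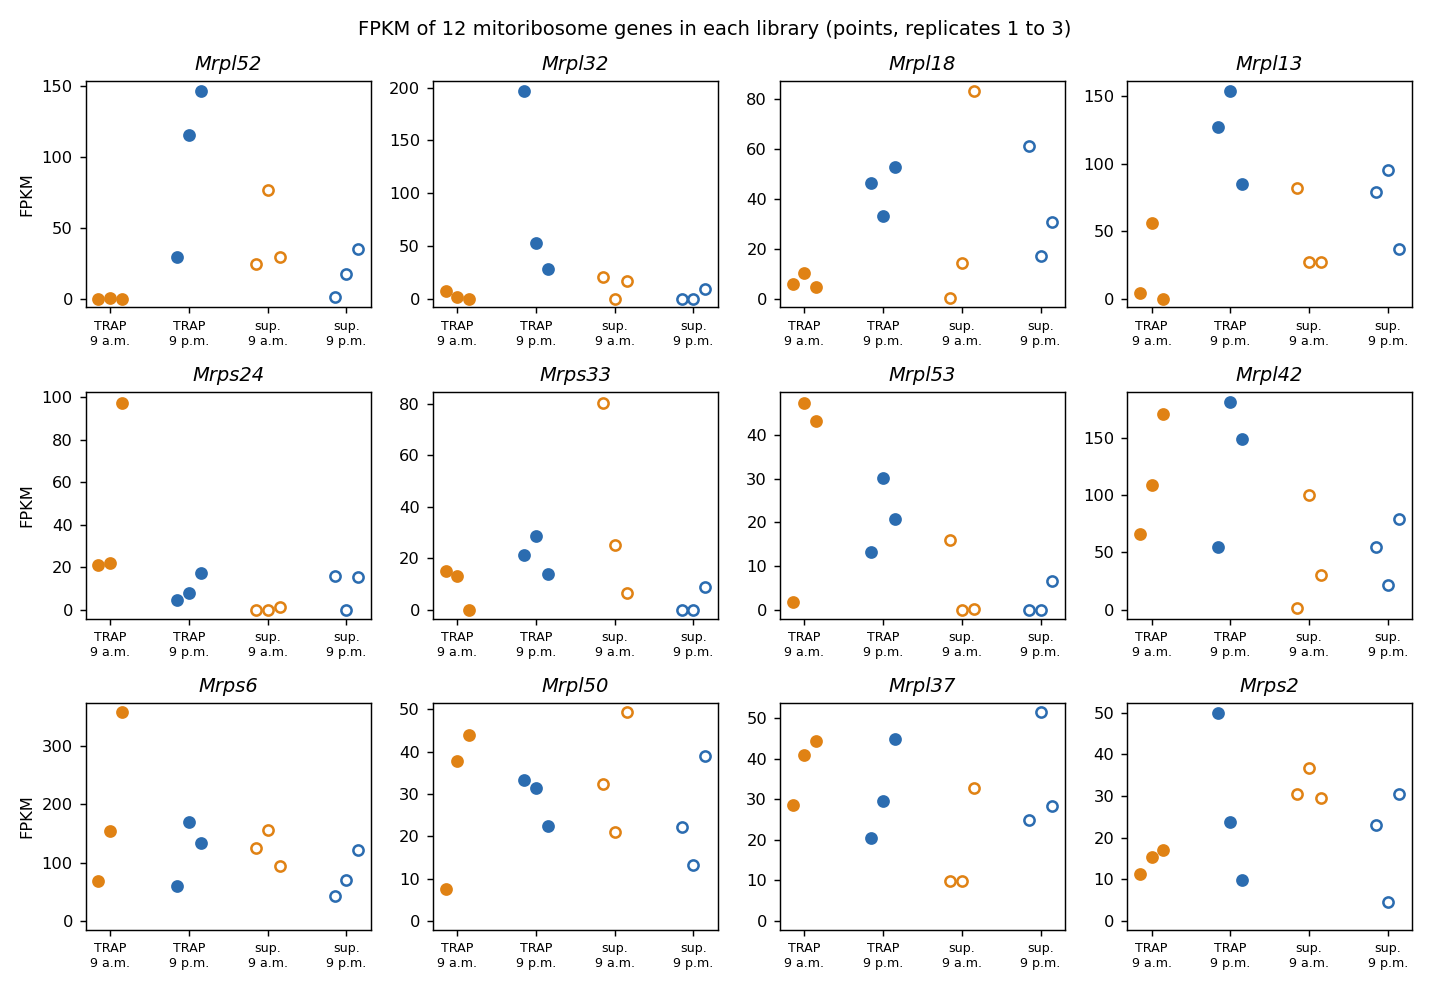
FPKM of 12 mitoribosome genes in each library (vertical axes, each on its own scale) by group (filled, TRAP; open, supernatant; orange, 9 a.m.; blue, 9 p.m.). Mrpl52, Mrpl32, Mrpl18 and Mrpl13 have all 3 evening TRAP values above the morning ones and Mrps24 has them below, while Mrps6, Mrpl50, Mrpl37 and Mrps2 are above 0 in every library.

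In the supernatant, which asks the same of the unbound RNA, the members were about evenly split between the times. Of 76 members tested, 41 were higher and 35 lower at 9 p.m., that is 53.9% higher against 51.8% of all 11075 genes. Their median log2 fold change was 0.35, against 0.03 over all genes. None was called, and over all genes 0% were called higher and 0.00903% lower. At an unadjusted p below 0.05, 2 members were higher and 1 lower, against 1.79% and 1.49% of all genes. Only Mrpl41, Mrpl24 and Mrpl35 had all 3 evening values above the morning ones, and no member had them below, against 4.9% and 3.79% of all genes. Mrpl24, a protein at the tunnel exit, was at 20.2, 0 and 25.3 FPKM in the morning and at 46.9, 52.8 and 28.0 FPKM in the evening (2.36, SE 1.06, adjusted p = 0.970). Mrpl54 had 2.19 (SE 1.11). Mrps33 had the lowest p of those lower in the evening, at 80.5, 25.1 and 6.46 FPKM against 0, 0 and 8.71 FPKM (-3.56, SE 1.24, adjusted p = 0.970), and the times overlapped. Mrps15 (-2.41, SE 1.22) and Mrpl52 (-1.77, SE 0.92) came next.

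The interaction asks whether the time difference itself differed between TRAP and supernatant. Of 77 members, 51 had the larger evening difference in TRAP and 26 in the supernatant, that is 66.2% against 53.8% of all 11156 genes, and the median was 0.86 against 0.11. None was called, and 0.00896% of all genes were called higher and 0% lower. At an unadjusted p below 0.05 there were 9 members on the TRAP side and 3 on the other, against 2.64% and 1.2% of all genes. After Mrpl52 came Mrpl32 (6.29, SE 1.89) and Mrps33 (5.38, SE 1.74), and on the other side Mrps24 (-4.22, SE 1.58), Mrpl19 (-3.46, SE 1.49) and Mrpl1 (-4.06, SE 1.88), all with an adjusted p of 0.988. For Mrps33 the TRAP values were 15.03, 12.99 and 0 FPKM in the morning and 21.1, 28.6 and 14.1 FPKM in the evening. The morning supernatant of Mrps33 was therefore its highest group by mean and the evening supernatant its lowest. Without supernatant 9 a.m. replicate 3 the count of higher members was 41, and without TRAP 9 p.m. replicate 2 the median was 0.28.

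Between the fractions, which compares the FPKM of each mRNA in TRAP with that in the supernatant, the morning showed no common direction. Each FPKM is scaled to its own library, so the ratio does not give the part of an mRNA that was bound. The supernatant also held more RNA of fibroblast and macrophage markers, and the part of this in the ratios was not tested. At 9 a.m., 38 of 75 members were higher in TRAP and 37 in the supernatant, that is 50.7% higher against 41.8% of all 10796 genes, and the median log2 ratio of TRAP to supernatant was 0.02 against -0.20. None was called (0% of all genes called higher and 0.0463% lower). An unadjusted p below 0.05 was reached by 4 members higher and 8 lower, against 1.61% and 2.89% of all genes, and 2 and 4 members did not overlap, against 3.25% and 6.8%. The sign of the median rested on single libraries: it was -0.68 without TRAP 9 a.m. replicate 2, -0.56 without supernatant 9 a.m. replicate 2 and 0.55 without supernatant 9 a.m. replicate 3. Mrpl52 had the lowest ratio, at -5.09 (SE 1.02, adjusted p = 0.267). Mrps24 had the highest, at 4.78 (SE 1.07, adjusted p = 0.406), with 0, 0 and 1.39 FPKM in the supernatant. Mrps17 was at 36.0, 29.1 and 76.0 FPKM in TRAP against 10.7, 0 and 10.4 FPKM in the supernatant (3.11, SE 0.97, adjusted p = 0.886). Mrps30, Mrps11 and Mrps2 were the other members whose TRAP values all lay below the supernatant. For Mrps2, which sits between the head and the body and was never at 0, these were 11.4, 15.4 and 17.1 FPKM against 30.4, 36.7 and 29.6 FPKM. Mrps15 (-3.55, SE 1.28), Mrpl33 (-3.82, SE 1.59) and, on the higher side, Mrpl42 (2.46, SE 1.03) overlapped between the fractions.

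At 9 p.m., more members were higher in TRAP than in the supernatant. The numbers were 54 and 23 of 77, that is 70.1% higher against 47.3% of all 10924 genes, with a median log2 ratio of 0.53 over members, 0.40 for the large and 0.65 for the small subunit, against -0.07 over all genes. None was called (0% of all genes called higher and 0.0275% lower). An unadjusted p below 0.05 was reached by 10 members higher and 1 lower, against 3.15% and 2.53% of all genes. In 9 members all TRAP values lay above the supernatant and in 1 below, against 4.9% and 7% of all genes. The count of higher members was 40 of 76 without TRAP 9 p.m. replicate 2 and 41 of 77 without supernatant 9 p.m. replicate 2, the library with 24 members at 0. Mrpl32 was at 0, 0 and 9.00 FPKM in the supernatant, below all its TRAP values (4.97, SE 1.06, adjusted p = 0.504). Mrpl3, at the heart of the large subunit near the peptidyl transferase centre, was at 12.2, 12.1 and 20.4 FPKM in TRAP against 0, 0.0986 and 0.869 FPKM in the supernatant (3.61, SE 0.97, adjusted p = 0.785). Mrps9, whose tail reaches the P site, was at 39.8, 19.7 and 11.99 FPKM against 0.111, 0.108 and 3.23 FPKM (3.68, SE 0.998, adjusted p = 0.785). Both genes were near 0 in the evening supernatant and overlapped between the fractions in the morning. Dap3, a GTP-binding protein of the small subunit first described in cell death, was at 7.21, 8.31 and 9.87 FPKM in TRAP against 3.86, 7.06 and 3.83 FPKM in the supernatant. Its values differed little in size but did not overlap. Mrpl15, Mrpl41, Mrpl53, Mrps27 and Mrps33 were separated in the same direction. Mrpl19 was the single member separated in the other, at 0.784, 4.50 and 0.0277 FPKM in TRAP and 10.49, 14.4 and 6.69 FPKM in the supernatant (-2.36, SE 1.04, adjusted p = 0.818). Mrpl1 (-1.88, SE 1.23) and Mrpl27 (-1.46, SE 1.12) came next on that side.

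Over both times together, 44 of 77 members were higher in TRAP and 33 in the supernatant, that is 57.1% higher against 43.2% of all 11156 genes. The median was 0.28 over members, 0.03 for the large and 0.54 for the small subunit, against -0.13 over all genes. None was called (0.0179% of all genes called higher and 0.0896% lower), and 4 members were higher and none lower at an unadjusted p below 0.05, against 2.75% and 4.97% of all genes. In no member were the 6 TRAP values all above or all below the 6 of the supernatant, against 0.233% and 0.798% of all genes. Mrpl53, a protein near the stalk, led with a log2 ratio of 3.08 (SE 0.92, adjusted p = 0.404). It was at 1.84, 47.4 and 43.1 FPKM in morning TRAP and at 13.2, 30.1 and 20.7 FPKM in the evening, while the supernatant held 16.0, 0 and 0.223 FPKM and 0, 0 and 6.65 FPKM. In 2 TRAP libraries, replicate 1 of each time, it thus lay within the range of the supernatant. Mrps24 (2.67, SE 0.93, adjusted p = 0.545), Mrpl42 (1.89, SE 0.70, adjusted p = 0.567), Mrpl36 (2.01, SE 0.93) and Mrps9 (1.91, SE 0.94) followed. Mrps35 (-1.28, SE 0.62), Mrps15 (-2.24, SE 1.12), Mrpl38 (-1.22, SE 0.71), Mrpl33 (-2.11, SE 1.43) and Mrps34 (-1.78, SE 1.22) had the lowest p of those lower in TRAP. The 2 fraction comparisons and the 2 time comparisons share libraries with one another, so their values stand side by side and not as repeats.

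**Figure D5:**
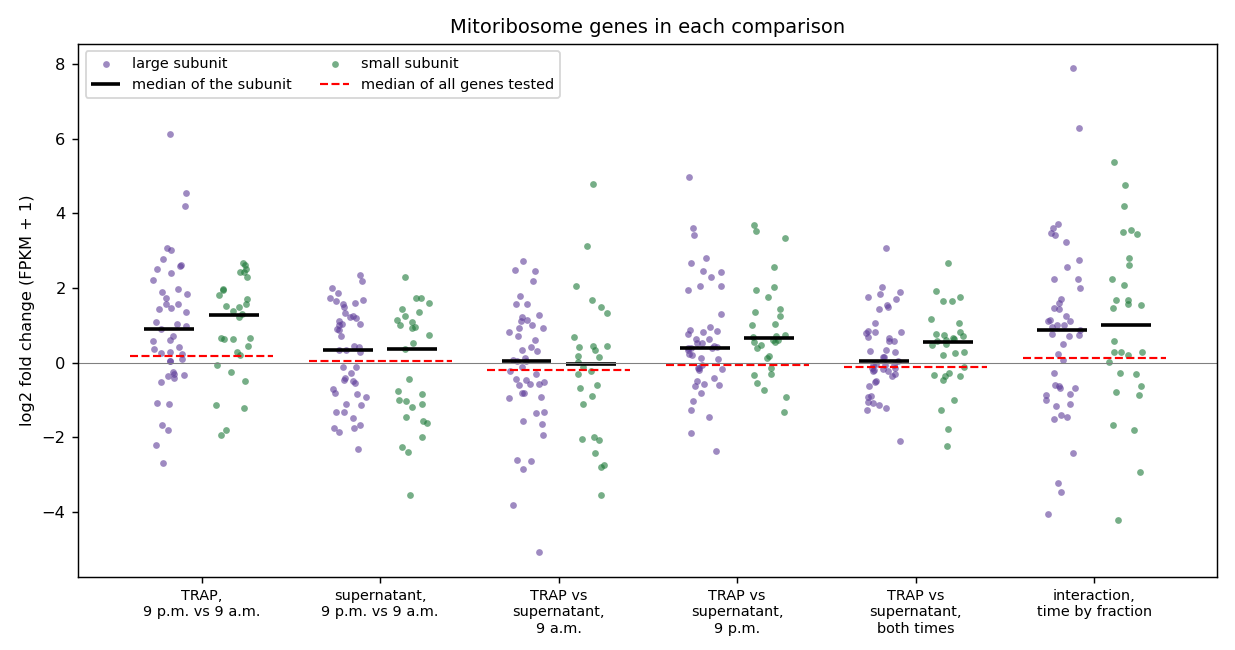
Log2 fold change of each tested mitoribosome gene (points; vertical axis, log2 of FPKM + 1) in the 6 comparisons, with the median of each subunit (black) and of all genes tested (red, dashed). Members centre above the median of all genes in TRAP between the times (0.98 against 0.16) and between the fractions at 9 p.m. (0.53 against -0.07), with a wide spread and no called gene.

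Members of known place in the ribosome are given next, for TRAP between the times. The stalk, which recruits the translation factors, is built on Mrpl10, Mrpl11 and Mrpl12. Mrpl12, which also binds the mitochondrial RNA polymerase, was at 33.5, 57.0 and 12.7 FPKM in morning TRAP and at 7.18, 29.5 and 54.1 FPKM in the evening Mrpl10 was at 13.3, 16.2 and 7.28 FPKM and at 37.8, 24.7 and 12.3 FPKM, and Mrpl11 at 4.19, 2.44 and 0.122 FPKM and at 2.16, 6.95 and 0.693 FPKM. All 3 overlapped between the times. At the side facing the membrane, Mrpl45, which anchors the ribosome to the inner membrane, was at 23.7, 5.41 and 31.8 FPKM in the morning and at 12.5, 11.8 and 1.96 FPKM in the evening, and Mrpl44, related to a bacterial RNase, at 38.7, 4.34 and 0 FPKM and at 0, 12.3 and 16.7 FPKM. Both overlapped as well.

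Around the decoding site, Mrps12 was at 8.496, 5.63 and 0 FPKM in morning TRAP and at 0, 34.5 and 40.6 FPKM in the evening, and Mrps5 at 10.6, 21.7 and 0.265 FPKM and at 2.12, 29.1 and 12.1 FPKM. Mrps16, Mrps22 and Mrps34 are small subunit genes in which inherited defects of mitochondrial translation are known. They ran over the 12 libraries from 0 to 47.9, 32.9 and 82.4 FPKM, with medians of 3.89, 6.79 and 2.73 FPKM, and were listed at 0 in 4, 1 and 4 libraries. Mrps30 and Mrps18a carry small subunit names but are proteins of the large subunit. The sums and medians by subunit count them by symbol, with the small subunit. Mrps30 was at 2.21, 9.27 and 0.235 FPKM in morning TRAP and at 32.9, 28.8 and 8.32 FPKM in the evening, with the times overlapping by the lowest evening value. Mrps27, a protein with RNA-binding repeats, was at 0.000227, 2.54 and 5.95 FPKM against 7.30, 11.3 and 12.7 FPKM, which did not overlap.

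Genes that serve the mitoribosome were no clearer than its proteins. Of 46 listed symbols for factors of mitochondrial translation and ribosome assembly, aliases of the same gene included, 43 were in the table. In TRAP between the times 41 were tested, 24 higher and 17 lower at 9 p.m., with a median log2 fold change of 0.49 and none called. Slirp, which with Lrpprc keeps mitochondrial mRNAs stable, was at 7.1, 53.4 and 13.6 FPKM in the morning and at 48.4, 158 and 57.9 FPKM in the evening (2.05, SE 0.72, adjusted p = 0.941). The lowest evening value of Slirp lay within the morning range, and Lrpprc itself had a log2 fold change of -0.13 (SE 0.58). Gfm2, which splits the ribosome for recycling, had -2.82 (SE 1.15, adjusted p = 0.941). In the other comparisons the factors had medians from -0.28 (fractions at 9 a.m.) to 0.37 (interaction), again with none called.

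The 5 measured mitoribosome proteins with other symbols gave 4 higher and 1 lower in TRAP at 9 p.m., with a median of 1.29. Among them, Ict1, a release factor relative built into the large subunit, was at 63.5, 55.9 and 0.6 FPKM in the morning and at 73.7, 153 and 116 FPKM in the evening (2.61, SE 1.13, adjusted p = 0.941), and the times did not overlap. Related lists of the same comparison had 26 of 34 complex I subunits higher (median 0.55), 44 of 59 cytosolic ribosomal protein genes (median 0.77) and 10 of 16 mitochondrial aminoacyl-tRNA synthetases (median 0.36), with none called. A median above that of all genes was thus shared by these lists and was not particular to mitoribosome genes. Between the fractions at 9 p.m., 27 of 35 complex I subunits (median 0.81) and 35 of 59 cytosolic ribosomal protein genes (median 0.26) were higher in TRAP. Of the mitochondrial aminoacyl-tRNA synthetases, 7 of 16 were higher there (median -0.22), and of the factors 19 of 40 (median -0.07). That evening shift was therefore not particular to mitoribosome genes either. Complex I subunits had library medians from 40.4 to 197 FPKM and at most 3 of 36 genes at 0. Cytosolic ribosomal protein genes, in contrast, had between 14 and 48 of 78 genes listed at 0, so a 0 in this table does not show that a gene was silent. The mRNAs and ribosomal RNAs encoded in mitochondrial DNA were not analysed here.

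In the genome, mitoribosome genes more often shared a start region with a neighbour than coding genes did. All 78 members were found in the GENCODE annotation of GRCm38 (mm10), 10 of them on chromosome 11 and 8 on chromosome 17. For 19 members (24.4%), the start of a coding gene on the opposite strand lay within 1000 bases upstream or up to 100 bases inside, against 7.48% of 19838 coding genes. The share was 27.1% in the large subunit, and 6 of the 30 small subunit genes had such a partner. Partners included other mitochondrial genes: Mrpl36 faced Ndufs6, a complex I subunit, with the starts overlapping by 29 bases, and Mrps12 faced Sars2, the mitochondrial seryl-tRNA synthetase, at 172 bases. Mrpl32 faced Psma2, a proteasome subunit, at 75 bases, and Mrpl49 faced Fau, a cytosolic ribosomal protein gene, at 59 bases. Genes on the opposite strand overlapped 36 members (46.2%), against 37.0% of coding genes, Mrpl46 and Mrps11 overlapping each other.

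RefSeq promoters (GRCm38.p6), from 250 bases before to 50 bases after a gene's start, were at hand for 68 members, 74 promoters in all. Short words bound by factors known for genes of mitochondrial function were searched on both strands, and overlaps between words were not removed. The NRF1 word GCATGCGC was in 10.8% of member promoters, against 2.71% of all 32851 promoters and 5.28% of the 10929 promoters of genes over 1 FPKM on average. The ETS word CCGGAAGT was in 16.2%, against 3.89% and 8.23%, and the YY1 word AAGATGGC in 16.2%, against 2.75% and 4.57%. The SP1 word GGGCGG stood at 52.7%, between the 35.7% and 63.4% of those sets. Of the words tied to the daily clock, the E-box CACGTG was in 9.46% (7 of 74 promoters), against 7.15% and 10%. The genes were Mrpl2, Mrpl20, Mrpl36, Mrpl37 and Mrps18c, and Mrpl2 entered with overlapping promoters that were each counted. The D-box TTATGTAA was in no member promoter, against 0.938% and 0.522%. The GC content of member promoters had a median of 58.5%, against 52.7% for all. These shares describe letters in a window, not bound sites, and no binding was measured.

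Windows of 30 bases, 5′ to 3′ on the gene's strand, are shown for 5 members that stood higher in evening TRAP without overlap and for Mrps24, which pointed the other way, with the matched word or its reverse complement in capitals. The windows were chosen for holding a word: Mrpl41 and Mrps25, which also stood higher without overlap, held none of the NRF1, ETS and YY1 words. Mrpl13, Mrpl15 and Mrps35, which stood higher in the same way, had no promoter at hand and were not searched. Mrpl52, Mrpl18 and Mrpl43 each had 1 ETS word, at its very start in Mrpl52, and Mrpl32 had NRF1 words at 3 places.
Mrpl52, ETS, chr14:54426899-54426928, plus strand: gggccacgcccACTTCCGGttcccttgctc
Mrpl18, ETS, chr17:12916312-12916341, minus strand: actgaaaacgCCGGAAGTagggggctgcgg
Mrpl43, ETS, chr19:45006443-45006472, minus strand: catgccacaaccccggaaCCGGAAGTcacc
Mrpl32, NRF1, chr13:14613105-14613134, minus strand: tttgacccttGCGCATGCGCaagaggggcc
Mrpl32, NRF1, chr13:14613085-14613114, minus strand: aagaggggcctGCGCATGCtctgagcgagg
Mrpl32, NRF1, chr13:14613041-14613070, minus strand: gcggacttaacGCATGCGCtcagcccgcgt
Mrpl35, YY1, chr6:71823743-71823772, minus strand: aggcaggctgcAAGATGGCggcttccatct
Mrps24, YY1, chr11:5707652-5707681, minus strand: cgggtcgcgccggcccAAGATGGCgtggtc
In the first Mrpl32 window the word and its reverse complement overlap, which lengthens the capitals. The YY1 word was also in the promoters of Mrpl32 and Mrps27, and the ETS word in those of Mrpl3 and Mrps27, which are not shown.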

How the data were processed

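RNA from TRAP and from the supernatant of choroid plexus was measured in 12 libraries (SMARTer Pico with ribodepletion, single-end reads of 50 bases). The authors deposited 1 table of FPKM values, made per the labels with STAR 2.4.0 and Cufflinks/Cuffdiff on mm10; neither the annotation nor the use of strand was given in the sources used here. FPKM divides by length and by the library total, so small RNA rows move every other value. From the 24354 rows, 27 with gene names turned into dates were left out. No 2 libraries were identical.

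Values were tested as log2(FPKM + 1) with limma 3.58.1 (R 4.3.3, intensity trend) over all genes with a mean over 1 FPKM in the libraries compared. Fold changes on this scale understate those of low genes. A gene was called at a Benjamini-Hochberg adjusted p below 0.05 and a log2 fold change beyond 0.4 (times, interaction) or 0.3 (fractions). The fits were also run on simulated data, drawn as independent normal values on the log2 scale. These lacked the drops to 0 in single libraries, so they do not show how the fits handle such values. Alternatives were a pseudocount of 0.1, no filter, a mean over 5 FPKM, quantile normalization, rescaling without small RNA rows, no trend, robust variances, 1 fit of all 12 libraries, a replicate block, and each library left out in turn. For the subunit medians, Mrps30 and Mrps18a were also counted with the large subunit.

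The labels give TRAP and supernatant the same adult number within a time. Such libraries were read as pairs from 1 sample, which the labels do not state. The main fits held no term for such pairs, which entered only with the replicate block. In the comparisons between times, that block joined libraries of the same number from different animals. The deviations of paired libraries from their group means correlated between -0.0751 and -0.0144. Morning and evening animals differ, and their same-numbered libraries correlated between -0.00659 and 0.104.

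Members named in each comparison were those called, those of lowest p in each direction (5 in TRAP between times and in fractions over both times, 3 elsewhere), the 4 of highest and lowest mean per subunit, members of known role, and those over 20 FPKM on average but listed at 0 somewhere. Members without overlap between groups were named after their values were seen. The members and lists were chosen with earlier results of these data known. Gene positions came from GENCODE M21, which held 95.7% of the symbols. Figures were drawn with matplotlib 3.10.9.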

Additional observations from a re-analysis of the deposited data

How the results depend on the processing

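Across the alternatives, the number of members called was 0 in each comparison with 2 exceptions. In TRAP between the times it was 1 without TRAP 9 a.m. replicate 2 (Mrpl13), so that leaving out libraries gave from 0 to 1. In the interaction it was 1 (Mrpl52) with the replicate block, which took libraries of the same time and number as pairs. The block changed no other call. No member was called in the main fits, so no call could change sign. With libraries left out in turn, the member median ran from 0.57 to 1.501 in TRAP between the times, from 0.04 to 0.65 in the supernatant, from -0.68 to 0.55 and from 0.17 to 0.98 between the fractions in the morning and in the evening, from 0.04 to 0.47 over both times, and from 0.28 to 1.46 in the interaction. Quantile normalization moved the all-gene median in TRAP between the times from 0.16 to -0.02 and the member median to 0.74. Counting Mrps30 and Mrps18a with the large subunit moved no subunit median beyond the spread of library medians within groups. With unknown depth and 3 libraries a group, many members at 0 in single libraries could not be told from members of low level.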
